A study of Mus musculus with 2 samples.

Results

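Voltage-gated sodium and calcium channels, HCN pacemaker channels, the sodium leak channel NALCN and TRP channels set how a neuron depolarizes, fires and admits calcium. Their genes were examined in Cajal-Retzius (CR) cells of the mouse hippocampus at P14. The members were all genes whose symbols name a sodium channel pore or beta subunit (*Scn*), a calcium channel pore (*Cacna1a* to *Cacna1i*), an alpha2delta or a calcium channel beta subunit (*Cacna2d*, *Cacnb*), an HCN channel (*Hcn*), *Nalcn*, or a TRPC, TRPM or TRPV channel (*Trpc*, *Trpm*, *Trpv*), which came to 56 of the 32285 genes in the files. The rule used symbols alone and no measured value.

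The study deleted *Cic*, which encodes the transcriptional repressor Capicua, in CR cells and compared their transcriptomes by single-cell RNA-sequencing. The control library came from *ΔNp73-Cre; Cic flox/+; tdT* mice and the knockout library from *ΔNp73-Cre; Cic flox/flox; tdT* littermates, so the control cells also carried 1 floxed *Cic* allele and the Cre driver. Each library pooled the hippocampi of 4 animals, 3 males and 1 female in the control and 2 males and 2 females in the knockout. *ΔNp73-Cre* recombines in CR cells, including those born in the cortical hem, tdT is the Cre-dependent fluorescent reporter, and live cells with tdT were sorted before droplet capture, so that every value below describes the sorted population.

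CR cells are early-born, reelin-secreting glutamatergic neurons that lie along the hippocampal fissure, and many of them die during postnatal life. In neurons generally, sodium channel pores carry the action potential upstroke, high-voltage calcium channels couple firing to transmitter release and gene expression, and alpha2delta and beta subunits bring those calcium pores to the membrane. T-type calcium channels and HCN channels act near the resting potential, NALCN passes a background sodium current, and TRP channels are cation channels opened by lipids, receptors, ions or heat.

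Cells were barcodes with at least 2000 UMIs (unique molecular identifiers, each counting 1 captured RNA molecule) and at least 5 UMIs of *Reln*, which gave 1003 control and 390 knockout cells of 1011 and 406 barcodes at that depth. The median cell held 6224 UMIs in the control library and 6664 in the knockout library, and no barcode was a cell in both libraries. All 10 of 10 CR markers listed (*Reln*, *Trp73*, *Lhx1*, *Lhx5* and others) were detected in 25% or more of the cells of each library. *Reln* was part of the rule for cells, so its detection was fixed and only the other markers are informative. Most markers of the other cell types were low. Exceptions included the granule neuron markers *Dock10* and *Rfx3*, found in 70.0% and 73.6% of control cells. *Rgs5* of mural cells and *Cspg4* of oligodendrocyte precursors were found in 31.8% and 30.3%. At least 3 of 4 granule neuron markers were held by 51 control and 15 knockout cells. The other granule neuron markers, *Prox1* and *Calb1*, were found in 3.79% and 4.39% of control cells. Droplets of 20 to 100 UMIs, which hold free RNA, numbered 29040 and 75813. *Cic* itself had 58.9 CPM in the control cells and 51.3 in the knockout cells (ratio 0.871, 95% interval 0.714 to 1.06), and because the tags lie at the 3′ end and may lie outside the deleted part, this does not check the label. Y-linked UMIs without *Xist* were found in 702 control and 194 knockout cells, and *Xist* without Y-linked UMIs in 227 and 176, so the sexes were unequally mixed in the 2 libraries. With 1 library per genotype there was no replicate, and no test, p-value or standard error is given. Intervals are exact 95% Poisson or binomial intervals, which cover counting error only and not differences between animals or cells.

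Levels are given as CPM, the UMIs of a gene per 1000000 UMIs outside mitochondrial and ribosomal protein genes. The 56 members together made up 0.792% of those UMIs in the control cells (7919 CPM) and 0.776% in the knockout cells (7764 CPM). At least 50 UMIs were counted for 33 members in control and 29 in knockout cells, and 1 to 49 UMIs for 19 and 21. *Trpv4*, *Trpm5*, *Scn10a* and *Cacna1i* had none in the control, where a count of 0 allows up to 0.299% of cells with a UMI (taken as 3 cells of the total, with an exact two-sided binomial bound of 0.367%). *Trpm1*, *Trpm5*, *Scn10a*, *Scn11a*, *Scn4a* and *Cacna1i* had none in the knockout, where 0 allows up to 0.769% (exact bound 0.941%). The signal was concentrated in few genes, since the 5 highest members held 65.7% of all member UMIs in control and 65.8% in knockout cells, and the 10 highest held 82.9% and 82.1%. A UMI counts a molecule and is not divided by gene length, but whether reads in introns were counted is not given in the sources used here, so the order is one of UMIs counted and not of transcripts per length.

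The alpha2delta subunits led the list. *Cacna2d1* was the highest member in each library, with 2182 CPM (2147 to 2218) in control and 2052 (1999 to 2106) in knockout cells. Of the cells, 1000 of 1003 control and 389 of 390 knockout cells held a UMI of it. *Cacna2d2* followed with 1031 and 1149.7 CPM and *Cacna2d3* with 575 and 537 CPM, whereas *Cacna2d4*, an alpha2delta gene known from retina, had 1 and 5 UMIs in all. The family summed to 3788 CPM in the control and 3740.1 in the knockout, or 47.8% and 48.2% of the member UMIs. *Cacna2d2* also stood out in droplets (621 and 728 CPM), so its CPM in cells exceeded that in droplets only 1.66-fold and 1.58-fold, against 8.49-fold and 7.95-fold for *Cacna2d1*. These ratios compare shares of UMIs and not UMIs per barcode. A UMI of *Cacna2d2* was found in 98.4% of control cells and 4.32% of control droplets.

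The high-voltage calcium pores came next, at 1979 and 1961 CPM in all. *Cacna1a*, the P/Q-type pore of presynaptic terminals, had 786 and 798 CPM, *Cacna1c* and *Cacna1d*, the neuronal L-type pores, had 627 and 573 CPM and 317 and 339 CPM, and *Cacna1b*, the N-type pore, had 228 and 229 CPM. *Cacna1e*, the R-type pore, reached only 18.2 and 19.9 CPM, and the retinal L-type gene *Cacna1f* 1.51 and 1.81 CPM. T-type pores were low, at 14.2 and 18.1 CPM for the 3 genes, of which *Cacna1g* supplied nearly all (13.6 and 17.4 CPM). The beta subunits, which bind the pore inside the cell, summed to 146 and 134 CPM. *Cacnb4* (81.9 and 79.2 CPM) and *Cacnb2* (28.6 and 27.5 CPM) exceeded the droplets. *Cacnb1* and *Cacnb3* had a lower CPM in cells than in droplets in each library, with *Cacnb3* at 19.7 against 61.5 CPM in the control and 14.8 against 60.9 CPM in the knockout. A UMI was nevertheless found in 9.07% of control cells and 0.176% of control droplets for *Cacnb1*, and in 11.4% and 0.448% for *Cacnb3*. Some CR markers also had a lower CPM in cells, such as *Trp73* (471 against 823 CPM in the control), and others a higher one, such as *Ndnf* (3959 against 897).

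Among sodium channel pores, *Scn3a*, the pore best known from embryonic neurons, was the highest, with 211 CPM in control (199.8 to 222) and 209 CPM in knockout cells (192 to 227). *Scn2a* followed with 144 and 154 CPM and *Scn8a*, the pore of mature nodes and initial segments, with 74.5 and 73.4 CPM. *Scn1a*, prominent in fast-spiking interneurons, had only 7.57 and 11.2 CPM. The intervals of *Scn3a*, *Scn2a* and *Scn8a* did not overlap in either library. The skeletal muscle pore *Scn4a* and the sensory neuron pores *Scn9a*, *Scn10a* and *Scn11a* had at most 4 UMIs each in the control and at most 3 in the knockout. Of the beta subunits, *Scn3b* had a higher CPM in cells than in droplets (96.8 against 53.7 CPM in the control). *Scn2b* had a lower CPM in cells than in droplets (52.0 against 79.9 CPM in the control). CPM compares shares of UMIs, and 27.2% of control cells but 0.599% of control droplets held a UMI of *Scn2b*.

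HCN genes were detected at low levels. *Hcn4*, the slow pacemaker subunit, had 57.6 and 59.3 CPM, *Hcn2* 41.7 and 56.4 CPM, and *Hcn3* had 99 and 62 UMIs, which is 22.4 CPM in the knockout. *Hcn2* was close to its droplet level (38.6 CPM in the control). *Nalcn* was the sixth member in the control and the seventh in the knockout, with 348 and 307 CPM, and was 12.2-fold above droplets in the control. RNA for proteins that NALCN needs was found too, with *Unc79* at 289 and 263 CPM, *Unc80* at 109 and 128 CPM, and *Fam155a* at 3346 and 2869.5 CPM, above every one of the 56 channel genes.

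TRPM channels were the main TRP group, with 545 CPM in the control and 449 in the knockout. *Trpm3*, a channel opened by heat and neurosteroids, had 259 and 167 CPM, *Trpm7*, a channel fused to a kinase, 183 and 178, and *Trpm2*, which responds to oxidative stress, 96.5 and 98.3. Of the TRPC group, *Trpc1* had 119.5 and 133 CPM and *Trpc5* 62.9 and 44.8, and *Trpc4*, *Trpc6* and *Trpc7* had at most 29 UMIs each. Of the TRPV group, *Trpv2* (39.8 and 44.5 CPM) and *Trpv6* (19.5 and 20.2 CPM) led, and *Trpv1*, the capsaicin receptor, had 41 and 11 UMIs.

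**Figure D1:**
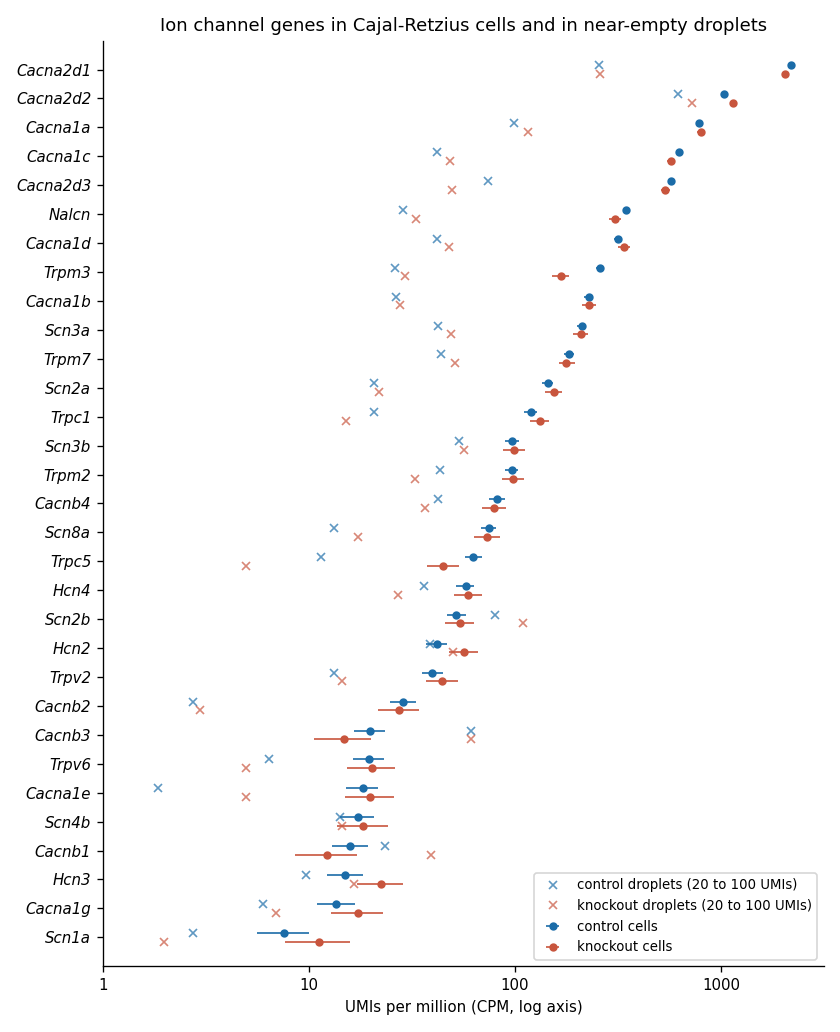
Level in CPM (log axis) of 31 members with at least 50 control UMIs, in control and knockout cells (dots with exact 95% Poisson intervals) and in droplets of 20 to 100 UMIs (crosses). *Cacna2d1* lies highest at 2182 and 2052 CPM, and for *Scn2b*, *Cacnb1* and *Cacnb3* the crosses lie to the right of the dots.

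The spread of UMIs between cells, taken as variance over mean, was largest for *Trpm3* among the members for which it was computed. To compare cells at 1 depth, every cell was thinned at random to 2000 UMIs, and the variance of a gene's UMIs over cells was divided by their mean, a ratio that is 1 when cells differ by counting alone. It was 2.59 and 2.66 for *Trpm3* in control and knockout, 1.68 and 1.99 for *Trpc5*, 1.72 and 1.72 for *Cacna2d3* and 1.69 and 1.53 for *Cacna2d1*. *Cacna1a*, *Cacna2d2* and *Cacna1d* had values of 1.05 to 1.15 although their levels were above that of *Trpm3*. The ratio also depends on the mean, so it does not rank the relative spread of genes of unlike level. The thinned mean was 0.514 and 0.364 UMIs per cell for *Trpm3* and 0.122 and 0.108 for *Trpc5*. For the genes with high ratios the Poisson intervals are therefore too narrow as a measure of the spread between cells. A UMI of *Trpm3* was found in 41.5% of control cells (416 of 1003) and 31.0% of knockout cells (121 of 390), in 24.8% and 20.0% after thinning, and in 0.172% and 0.108% of droplets.

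The genotype comparison asked whether the channels differed when *Cic* was deleted. The paper reports that this knockout line lost the Capicua protein from most but not all hippocampal CR cells. The knockout library may therefore include cells that kept it, and the ratios describe the library as a whole. Most channels did not differ by a large factor. The sum of all members was 0.980 times the control level in the knockout (0.965 to 0.996), and the 34 members with at least 50 UMIs in both libraries together had a median ratio of 1.02, next to 1.01 over the 11194 genes with as many UMIs. Of the 34, 19 were above and 15 below 1. At a fold size of 1.5, 0 of 34 members were higher in the knockout, where 4.38% of all 11194 genes were. Lower by that size were *Trpm3* and *Trpv1*, or 5.88% of the members, where 2.97% of all genes were.

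*Trpm3* (chr19:22139046-22995410, plus strand, GRCm38) had 1711 UMIs in the control and 463 in the knockout, or 259 and 167 CPM. Its knockout level was 0.646 times the control level (0.582 to 0.716), the lowest upper bound among the 34 members. A single knockout cell held 47 of the 463 UMIs (10.2%), and without the cell with the most UMIs in each library the ratio was 0.591 (0.530 to 0.658). With every cell thinned to 2000 UMIs it was 0.711. In cells with Y-linked UMIs and no *Xist* it was 0.751, and in cells with *Xist* and no Y-linked UMIs 0.554. It stayed below 1 in each of those settings, but was beyond 1.5-fold neither after thinning nor in the Y-positive cells. *Trpv1* was 0.640 times the control level from 41 and 11 UMIs, and its interval of 0.297 to 1.27 holds 1. The genes *C330002G04Rik* and *Gm27151*, annotated on the other strand, overlap *Trpm3*, and the strand setting of the counting was not stated, so reads of the overlapping genes cannot be told apart. Genes on the other strand also overlap other members, among them *Trpc5* (*Trpc5os*), *Cacna2d3* (*Lrtm1* and others), *Hcn3* (*Pklr*), *Cacna2d2*, *Cacna1c*, *Cacna1d* and *Cacna2d1*. The same limit holds for them.

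Other members differed by less. *Trpc5*, an X-linked receptor-operated channel (chrX:144381671-144688180, minus strand), had 62.9 CPM in the control and 44.8 in the knockout (ratio 0.713, 0.579 to 0.874), and 0.889 after thinning. *Nalcn* (0.881, 0.813 to 0.954), *Cacna1c* (0.914, 0.862 to 0.969) and *Cacna2d1* (0.940, 0.912 to 0.970) were slightly lower. *Hcn3* (1.49, 1.07 to 2.07), *Hcn2* (1.35, 1.11 to 1.65) and *Cacna2d2* (1.12, 1.07 to 1.16) were higher in the knockout. For these 3 genes the CPM in cells was only 1.08 (*Hcn2*) to 1.66 times (*Cacna2d2*) that in droplets in the control. A UMI was nevertheless found in 22.5% of control cells and 0.279% of control droplets for *Hcn2*, and in 8.57% and 0.0723% for *Hcn3*. The alpha2delta family showed opposite differences, *Cacna2d1* lower and *Cacna2d2* higher, and its sum was 0.987 times the control level (0.965 to 1.01). *Cacna1d* (1.07, 0.989 to 1.16), *Cacna1a* (1.01, 0.964 to 1.07), *Cacna1b* (1.00, 0.912 to 1.10), *Scn3a* (0.992, 0.899 to 1.09) and *Scn8a* (0.985, 0.832 to 1.16) had intervals that hold 1 and leave out a difference of 1.5-fold. By family, the TRPM sum was 0.825 times the control level (0.773 to 0.880), with *Trpm7* at 0.975 and *Trpm2* at 1.02, and the HCN sum was 1.13 times (1.01 to 1.27).

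**Figure D2:**
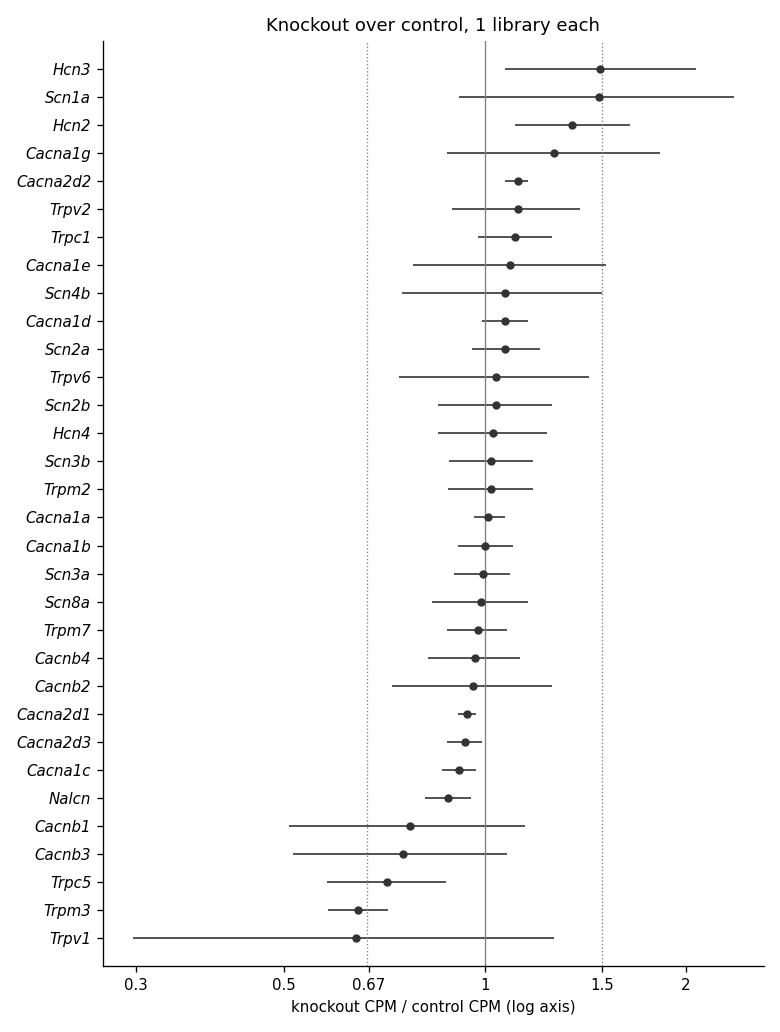
Knockout CPM divided by control CPM (log axis) for 32 members with at least 50 UMIs in both libraries together, with exact 95% intervals for counting error. Dotted lines mark a 1.5-fold difference, which *Trpm3* at 0.646 and *Trpv1* at 0.640 pass and *Hcn3* at 1.49 does not.

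Sequences before the transcription start are shown for *Trpm3*, *Trpc5* and *Cacna2d3*, the genes with the largest differences by genotype or marker with over 100 UMIs in each library, and for *Scn8a*, the member with a CIC motif that was expressed. They were taken from RefSeq (GRCm38.p6), which gave windows of 250 bases before to 50 after a start for 44 of the 56 members (58 windows). CIC binds an octamer, searched here as TGAATGAA, TCAATGAA, TGAATGGA or TCAATGGA on both strands. At least 1 of these octamers was found in 3.84% of all 32851 windows and in 3 of the 58 member windows (5.17%), those of *Trpv4*, *Scn10a* and *Scn8a*. No match says only that these letters are not in the window. The 250 bases before the start follow, 5′ to 3′ on the strand of the gene, with CG dinucleotides in capitals because they separate these windows:
Trpm3, first start, chr19:22138796-22139045, plus strand: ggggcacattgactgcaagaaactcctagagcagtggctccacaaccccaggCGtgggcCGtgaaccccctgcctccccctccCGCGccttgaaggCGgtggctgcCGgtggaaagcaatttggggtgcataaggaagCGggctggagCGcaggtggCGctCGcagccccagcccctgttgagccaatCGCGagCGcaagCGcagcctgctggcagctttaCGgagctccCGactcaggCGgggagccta
Trpm3, second start, chr19:22447958-22448207, plus strand: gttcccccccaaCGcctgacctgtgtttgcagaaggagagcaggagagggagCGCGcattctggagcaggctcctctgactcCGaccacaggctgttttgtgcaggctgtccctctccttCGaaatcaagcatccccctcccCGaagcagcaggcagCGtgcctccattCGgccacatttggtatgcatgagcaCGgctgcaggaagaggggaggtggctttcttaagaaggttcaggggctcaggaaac
Trpc5, chrX:144688181-144688430, minus strand: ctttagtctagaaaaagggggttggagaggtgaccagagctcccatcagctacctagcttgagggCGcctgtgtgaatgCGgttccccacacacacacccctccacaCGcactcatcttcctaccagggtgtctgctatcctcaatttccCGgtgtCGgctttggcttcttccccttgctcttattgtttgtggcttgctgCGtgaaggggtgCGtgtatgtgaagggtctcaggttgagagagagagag
Cacna2d3, chr14:29721865-29722114, minus strand: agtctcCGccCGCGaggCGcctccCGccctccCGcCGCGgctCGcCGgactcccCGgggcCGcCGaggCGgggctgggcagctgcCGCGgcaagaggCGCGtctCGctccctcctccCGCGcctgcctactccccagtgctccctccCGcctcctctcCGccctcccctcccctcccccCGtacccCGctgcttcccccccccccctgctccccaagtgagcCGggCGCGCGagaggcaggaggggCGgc
The window of *Cacna2d3* was 80.0% G and C with 30 CG dinucleotides, those of *Trpm3* 66.4% with 17 and 59.2% with 9, and that of *Trpc5* 54.4% with 7. The octamer of *Scn8a* began 89 bases before its second start and is shown in capitals:
Scn8a, chr15:100936162-100936209, plus strand: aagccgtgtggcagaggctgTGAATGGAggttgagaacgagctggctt
*Scn8a* differed little between the genotypes (ratio 0.985), and the files do not show which start was used.

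Next, the channels were compared between cells with and without a UMI of 3 sets of genes that vary among CR cells, *Cck* (a neuropeptide), *Grik1* (a kainate receptor subunit) and *Chst8* or *Alkal2* (a sulfotransferase and a receptor tyrosine kinase ligand). Positive and negative cells came from the same library and were compared within it, so each library gave 1 value and the pair of values was not tested. *Cck* was positive in 324 control and 110 knockout cells, *Grik1* in 194 and 70, and *Chst8* or *Alkal2* in 232 and 91. After thinning to 2000 UMIs these were 179 and 59, 98 and 30, and 99 and 45 cells. In droplets, 0.940% and 0.319% held a *Cck* UMI, and at most 0.228% a UMI of the other sets. The sets overlapped, since 47 of the 194 *Grik1*-positive control cells were also *Cck*-positive. Cells with a UMI were deeper, most of all for *Chst8* or *Alkal2* in the knockout (median 7869 against 6361 UMIs). Members were compared where each library had at least 50 UMIs, which held for 29.

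*Cck*-positive cells had more *Cacna2d3* and less *Trpc5* and *Trpm3* in each library. *Cacna2d3* (chr14:28904943-29721864, minus strand), whose product is an auxiliary subunit of presynaptic calcium channels, had 794 CPM in *Cck*-positive and 459 in *Cck*-negative control cells (ratio 1.73, 1.62 to 1.85), and 788 and 435 CPM in the knockout (1.81, 1.63 to 2.01). It was the only 1 of 29 members at least 1.5-fold higher in both libraries, against 0.943% of all 7849 genes compared. *Trpc5* had 21.4 and 84.8 CPM in the control (0.252, 0.183 to 0.341) and 8.80 and 59.4 CPM in the knockout, from 7 and 117 UMIs (0.148, 0.0583 to 0.315). *Trpm3* had 149.9 and 317 CPM in the control (0.473, 0.419 to 0.532) and 99.3 and 195 CPM in the knockout (0.510, 0.395 to 0.651). These 2 were the members at least 1.5-fold lower in both libraries, against 1.24% of all genes. *Cacna1e* had ratios of 0.715 (0.464 to 1.08) and 0.550 (0.247 to 1.11), *Cacnb2* of 1.04 and 1.62, and *Hcn2* 1.08 and 1.07. The sum of all members was 0.981 and 0.960 times that of negative cells. The medians of the 29 members, 0.927 and 0.952, lay slightly below those of all genes, 0.996 and 0.993. The GABAergic marker list was lower in *Cck*-positive cells (130.2 against 231 CPM and 99.3 against 217). Only 1 of its 5 genes was found in over 25% of the cells of each library, and *Gad1* and *Gad2* had 1 UMI each in either library. The sum thus describes mainly that 1 gene, and its part in the result was not tested. The pyramidal neuron marker list was higher in *Cck*-positive cells (45.5 against 16.9 CPM in the control and 69.1 against 40.1 in the knockout). *Mpped1* held 163 of the 177 control UMIs of that list, and its part was not tested either.

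*Grik1*-positive cells of the control library had more *Trpm3*, at 476 CPM against 202 in negative cells (ratio 2.36, 2.14 to 2.60). In the knockout they had 201 against 159 CPM (1.26, 1.01 to 1.57). This gap between the libraries was smaller after thinning, with ratios of 2.03 (1.68 to 2.44) and 1.67 (1.12 to 2.44), and *Trpm3* was then past 1.5-fold in both libraries. It was also past that size in both with a positive cell defined by 2 or more UMIs (3.06 and 2.01) and with cells positive for *Grik1* alone (2.43 and 1.95). It was not past that size in both when positivity was also taken from thinned cells, or with at least 4000 UMIs per cell (2.43 and 1.24). Nor was it with the mitochondrial limit, the other scalings or free RNA subtracted. The same levels can be read by genotype and are no further result. The knockout level of *Trpm3* was 0.423 times that of the control among *Grik1*-positive cells (0.342 to 0.519). It was 0.788 times among *Grik1*-negative cells (0.697 to 0.890). These 2 intervals did not overlap, but they cover counting error only and are too narrow for the spread of *Trpm3* between cells. The thinned ratios by *Grik1* given above had overlapping intervals. The difference was not tested. *Trpc5* showed the same order, at 0.385 (0.191 to 0.711) and 0.783 (0.627 to 0.973), with overlapping intervals. Of the 29 members, 1 was at least 1.5-fold higher in both libraries, against 0.548% of all genes. *Trpv2* was the only member at least 1.5-fold lower in both (0.640 and 0.622), against 1.16% of all genes. It was not past that size in both without the respiratory-gene-high cells described below or with a positive cell defined by 2 or more UMIs. Nor was it with cells positive for *Grik1* alone or with positivity from thinned cells. *Scn3b* had ratios of 1.22 and 1.17, *Cacna1e* of 0.851 and 0.708, and *Trpv6* of 0.779 and 0.499. The intervals of *Cacna1e* and *Trpv6* hold 1 in each library, and *Cacna1e* was above 1 after thinning (1.63 and 2.08). The sum of all members was 1.09 times that of negative cells in each library, and *Cacna2d1* was 1.14 and 1.15 times as high. The GABAergic neuron marker list was also higher in *Grik1*-positive cells, at 296 against 169 CPM in the control and 255 against 166 in the knockout. Of its defining markers, *Gad1* and *Gad2* had 1 UMI each in either library, and *Lhx6* had 0, so the sum again describes mainly the 1 gene found in over 25% of cells.

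Cells with *Chst8* or *Alkal2* had more *Cacna1e*, whose product is the R-type calcium pore (chr1:154390731-154884501, minus strand). It had 31.2 CPM in positive and 13.9 in negative control cells (ratio 2.25, 1.53 to 3.27). In the knockout the ratio was 2.95 (1.68 to 5.21), with 38.2 CPM in positive cells. It was the 1 of 29 members at least 1.5-fold higher in both libraries, against 0.841% of all 7848 genes, and 0 members were lower by that size, against 1.19%. The values rested on 51 and 69 UMIs in the control and 29 and 26 in the knockout. *Trpc1* was 1.30 times as high in positive cells of each library (1.11 to 1.51 in the control) and *Cacna1b* 1.16 and 1.19 times. The lowest members by the rule were *Scn2b* (0.909 and 0.695), *Trpv6* (0.767 and 0.647) and *Scn4b* (0.854 and 0.492), whose 6 intervals all hold 1, from at most 31 UMIs in the positive knockout cells. The sum of all members was 0.978 and 1.01 times that of negative cells.

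**Figure D3:**
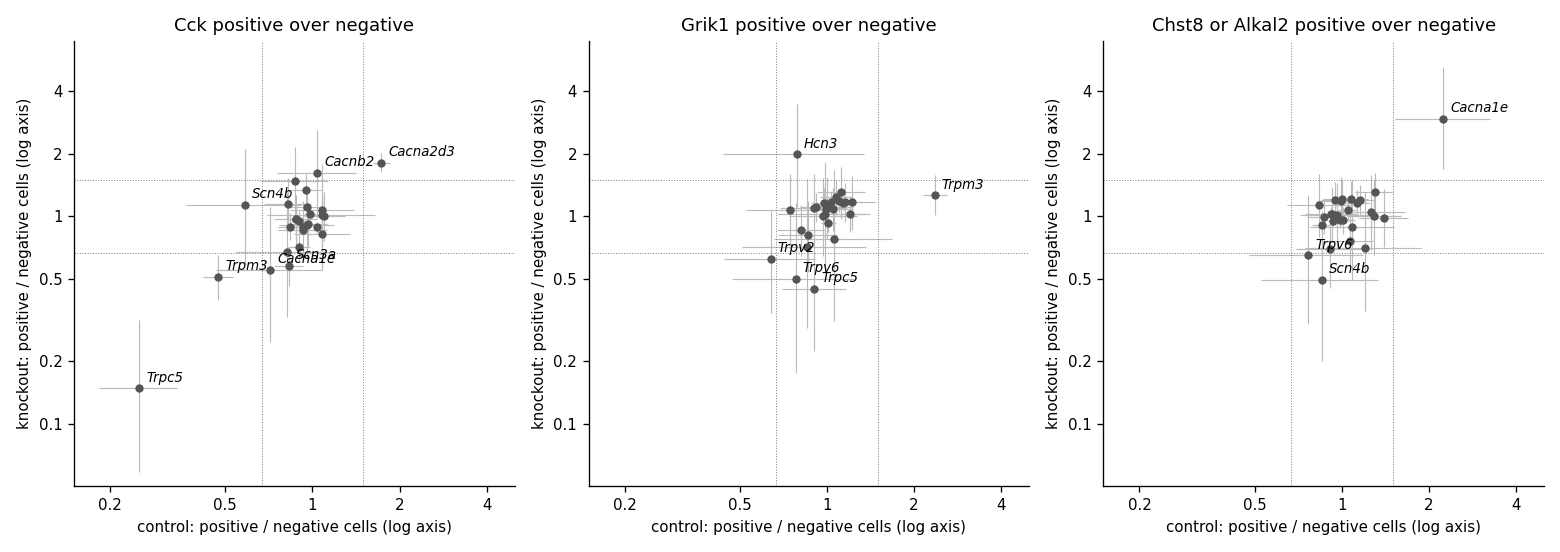
Ratio of CPM in positive over negative cells for 27 of the members compared, control on the horizontal and knockout on the vertical log axis, with exact 95% intervals and dotted lines at 1.5-fold. *Cacna2d3*, *Trpm3* and *Trpc5* lie apart for *Cck*, *Trpm3* lies at 2.36 and 1.26 for *Grik1*, and *Cacna1e* lies at 2.25 and 2.95 for *Chst8* or *Alkal2*.

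Cells were also divided into those positive for exactly 1 set, for several and for none. *Cacna2d3* was highest in cells positive for *Cck* alone, with 820.5 CPM (774 to 869) for control and 827 CPM (748 to 912) for knockout cells, compared with 479.6 and 410.3 CPM in cells positive for none. *Trpm3* reached 585 CPM (535 to 638) in control cells positive for *Grik1* alone but 282 (225 to 349) in the corresponding knockout cells, and 115 and 133 CPM in cells positive for *Cck* alone. In knockout cells *Trpm3* was thus about as high in cells positive for *Cck* alone as in cells positive for none, at 144 CPM, and the ratio of 0.919 was not past 1.5-fold. *Trpm3* of cells positive for *Chst8* or *Alkal2* alone did not differ between the libraries beyond the intervals (265 and 289 CPM). *Trpc5* was low in cells positive for *Cck* alone (22.9 and 12.3 CPM) and had 116 CPM (95.6 to 139.9) in control cells positive for *Chst8* or *Alkal2* alone, above the 77.7 CPM (66.9 to 89.8) of cells positive for none. In the knockout these 2 groups did not differ beyond their intervals (70.5 CPM, 47.2 to 101, and 67.3 CPM, 53.1 to 84.3). *Cacna1e* had 38.7 and 58.4 CPM in cells positive for *Chst8* or *Alkal2* alone, and at most 19.5 CPM in any other group.

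**Figure D4:**
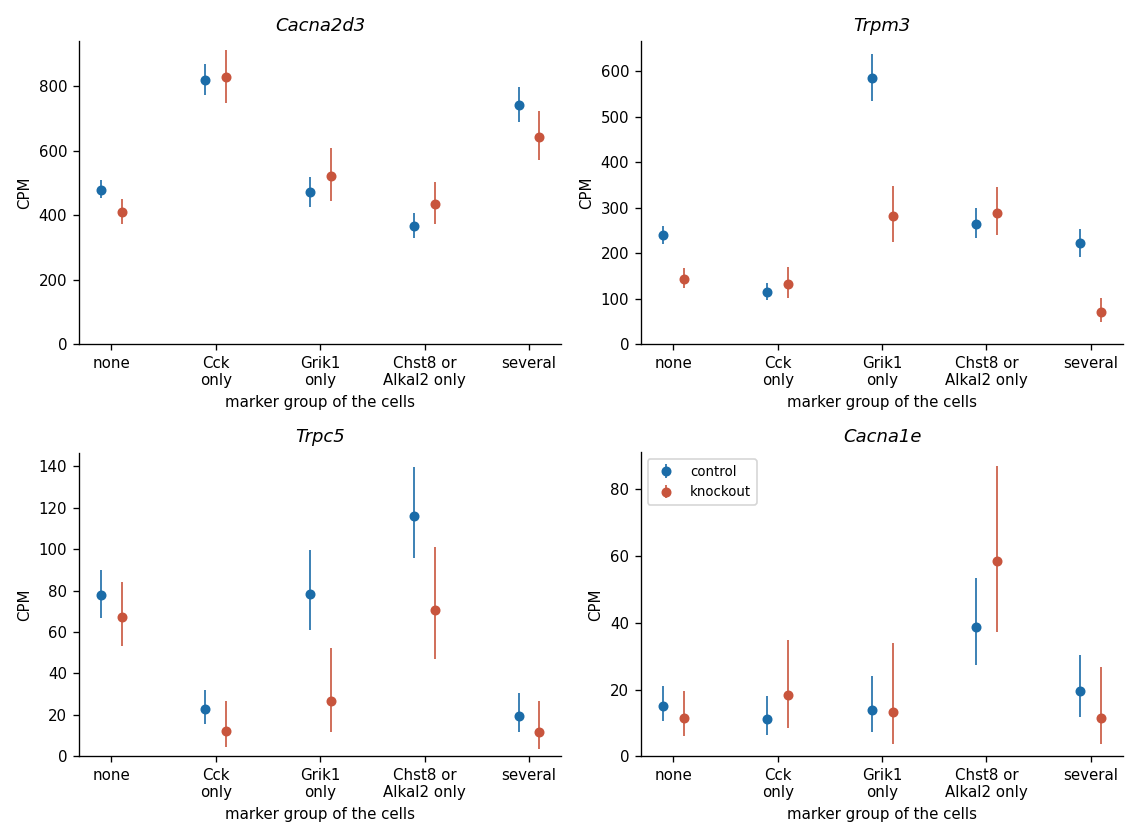
CPM of 4 members in cells positive for none, exactly 1 or several of the marker sets, for control and knockout, with exact 95% Poisson intervals and axes from 0. *Trpm3* of control cells positive for *Grik1* alone stands at 585 CPM, the corresponding knockout cells at 282.

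A further split was chosen after values had been seen. In 65 control and 24 knockout cells the nuclear genes of the respiratory chain made up at least 2% of the UMIs, and these cells were deep (medians of 13609 and 14229.5 UMIs against 6097 and 6440.5). The members were lower in them, with 0.539% of the UMIs in the control against 0.825% in the other cells (ratio 0.653, 0.632 to 0.674), and 0.526% against 0.807% in the knockout (0.652, 0.619 to 0.686). Of 29 members, 15 were at least 1.5-fold lower in both libraries, or 51.7%, against 18.5% of all 7850 genes, and 0 were higher, against 19.3%. *Cacna1a* had 457 CPM against 829.7 in the control (0.550) and 439.6 against 841 in the knockout (0.523). *Cacna1b* (0.451 and 0.324), *Cacna1c* (0.456 and 0.654), *Cacna1d* (0.435 and 0.631), *Nalcn* (0.530 and 0.625) and *Trpm3* (0.484 and 0.218) were also lower. *Cacna2d2* was not (1.00 and 0.944), nor was *Scn2b* (1.27 and 1.13).

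Of the 15 lower members, 9 were genes that span over 200 kb. All 12 members that span over 200 kb were below 1 in each library, with medians of 0.524 and 0.609, and the 10 under 50 kb had medians of 0.862 and 0.797. Over all genes compared, the 670 of more than 200 kb had medians of 0.556 and 0.599, and the 4819 under 50 kb 1.14 and 1.13. The long members thus lay near the long genes at large. The other members lay below genes of their span. The 7 members of 50 to 200 kb had medians of 0.594 and 0.551, against 0.731 and 0.752 for the 2356 genes of that span. The medians of the members under 50 kb were likewise below those of all genes under 50 kb. Across the 29 members, which share the same cells and depth, Spearman's rho between span and ratio was -0.41 in control and -0.36 in knockout cells, and over all genes -0.52 and -0.44. The level in cells over that in droplets also went with span, with rho of 0.86 and 0.80 across the 34 members and 0.53 and 0.48 over all genes. The part of gene length, introns or depth in these values was not tested. Without the respiratory-gene-high cells, *Trpm3* was 0.664 times the control level in the knockout.

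**Figure D5:**
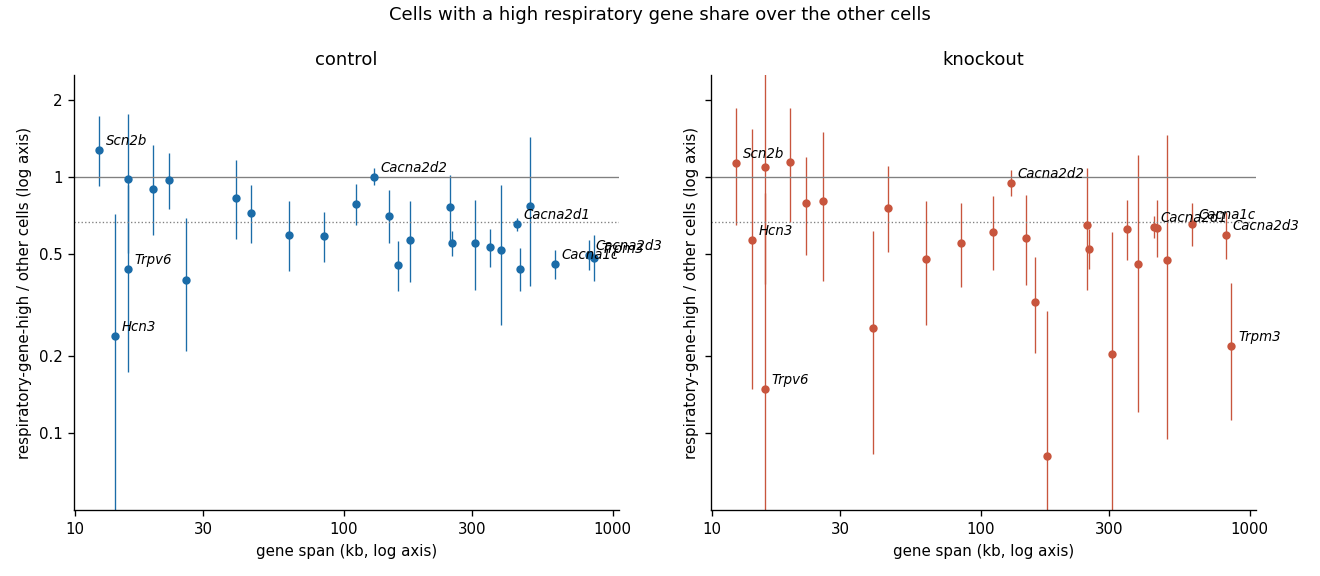
Ratio of CPM in cells with at least 2% respiratory chain UMIs over other cells against gene span in kb (both log axes) for 27 members, with exact 95% intervals, some of which run past the axis. The short gene *Scn2b* lies above 1 in each library and the genes over 200 kb lie below 1, while *Cacna2d2*, of 129.7 kb, lies at 1.00 and 0.944.

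A list of 50 other genes covered proteins that bind or traffic these channels, further cation channels, and proteins of calcium release and entry. Of these, 47 were in the files. In the genotype comparison 32 had enough UMIs. *Tpcn1*, an endolysosomal cation channel (1.59, 1.09 to 2.31), and *Ryr3*, a calcium release channel (1.61, 0.969 to 2.64), were at least 1.5-fold higher, and *Pex5l*, an HCN trafficking protein (0.651, 0.535 to 0.787), and *Cacng8*, a regulator of AMPA receptors related to calcium channel gamma subunits (0.501, 0.278 to 0.852), were lower. These are 2 and 2 of 32 genes, where 4.38% and 2.97% of all genes were past that size. *Cacng8* rested on 81 and 17 UMIs. By *Cck*, 24 could be compared. *Cacng5*, of the same gamma family, was 2.34 and 2.95 times as high in *Cck*-positive cells, and *Fgf14*, which binds sodium channel pores (0.651 and 0.486), and *Rims1*, which tethers presynaptic calcium channels (0.637 and 0.649), were lower, where 0.943% and 1.24% of all genes were past 1.5-fold in the same direction in both libraries. In *Grik1*-positive cells *Cacng5* was 0.392 and 0.342 times as high as in negative cells. It was the only 1 of 24 genes past 1.5-fold in both libraries, where 0.548% of all genes were higher and 1.16% lower. By *Chst8* or *Alkal2*, 0 of 24 genes were past that size in both, where 0.841% of all genes were higher and 1.19% lower. *Fgf14* came nearest with 1.40 and 1.69.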

How the data were processed

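The authors deposited raw UMI counts per gene and barcode from 10x 3′ libraries, without normalization and before cells were called. The matrix header names Cell Ranger 4, the submitters' processing notes name Cell Ranger 8.0.1 and mm39, and the paper's methods differ from both. Intron and strand settings are not given in the sources used here, and the files hold no coordinates. Gene positions came by Ensembl identifier from GENCODE M21 (GRCm38). All cells of the rule were kept and no doublet caller was run.

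UMIs were summed per library and group of cells and scaled per 1000000 UMIs outside mt-, Rpl, Rps and Mrp genes, which left 6601724 control and 2765943 knockout UMIs (Python 3.11.15, numpy 2.4.6, scipy 1.17.1). Ratios needed at least 50 UMIs, in both libraries together by genotype and in each library by marker. No significance test was made. Members named in the genotype comparison were those at least 1.5-fold apart, then the 5 highest and 5 lowest by the interval bound nearer to 1. By marker they were those 1.5-fold apart in both libraries, and the 3 highest and 3 lowest by the smaller fold. Some genes, also those that meet these rules, are not reported here and are left out of the figures. Others named were chosen after their values were seen. The members, lists and rules were chosen with earlier results of these data known.

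The ratios and intervals were tried on simulated data with known ratios, drawn as Poisson counts per library. The intervals held the true ratio for 94.3% of changed and 95.4% of unchanged genes. Counting alone put 2.65% of the unchanged genes past 1.5-fold in the simulated genotype comparison. The simulation had no spread between cells or animals, so it cannot show how the intervals perform with such spread. Alternatives covered cell filters, scaling, thinning, free RNA, count minimums, sex and positivity.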

Additional observations from a re-analysis of the deposited data

Results flagged for a closer look

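*Cacna2d1* went in opposite directions with *Cck* in the 2 libraries. *Cck*-positive cells had 1.04 times the level of negative cells in the control (2242 against 2150.0 CPM, interval 1.01 to 1.08) and 0.883 times in the knockout (1875 against 2123 CPM, interval 0.832 to 0.937). The difference was not tested, since each genotype is 1 library.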

How the results depend on the processing

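Of 236 recomputed values of summed ratios and counts of members, 200 kept within the interval or within 1.5 times of the reported value, and none reversed. The share of all genes past 1.5-fold is not given here for each alternative. The counts below therefore have no background beside them and describe only how the calls moved. The members at least 1.5-fold higher in the knockout, 0 as reported, numbered 1 with at least 4000 UMIs per cell, with the mitochondrial limit and in Y-positive cells (*Hcn3* in each), 2 after thinning (*Hcn3*, *Scn1a*) and 3 at a count minimum of 10. Those lower, 2 as reported, numbered 1 at a minimum of 200, 4 at a minimum of 10 and 0 in Y-positive cells. By *Cck*, those lower fell to 1 at a minimum of 200 and with cells positive for 1 marker only, and rose to 3 after thinning, at a minimum of 10 and at 2 or more UMIs. With positivity from thinned cells they were *Scn4b* and *Trpc5*, and *Trpm3* was not past 1.5-fold in both libraries. By *Grik1*, those higher numbered 2 after thinning, at 2 or more UMIs and with positivity from thinned cells, 0 at a minimum of 200 and 3 at a minimum of 10. Those lower were 0 without respiratory-gene-high cells, at a minimum of 200 and with 1 marker only. In place of *Trpv2*, the member lower was *Hcn2* with positivity from thinned cells and *Cacna1e* at 2 or more UMIs. By *Chst8* or *Alkal2*, those higher were 0 at a minimum of 200 and at 2 or more UMIs, where *Cacna1e* had too few UMIs (its ratio was 2.14 to 2.72 in control and 2.89 to 5.07 in knockout cells over 13 alternatives), and those lower 1 at a minimum of 10 and at 2 or more UMIs. With 1 marker only, *Cacna1e* also had too few UMIs (24 and 13 in the knockout). The member higher was then *Trpc1* (169 against 106 CPM in the control and 204 against 114 in the knockout). In respiratory-gene-high cells, 1 was higher at a minimum of 10, and those lower, 15 as reported, numbered 10 to 17 over 11 alternatives.

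The summed ratio by *Grik1* was 1.12 in the control after thinning, 1.14 and 1.15 in control and knockout with positivity from thinned cells, and 1.19 in the knockout at 2 or more UMIs. By *Chst8* or *Alkal2* it was 1.00 in the control with the median gene set to 1 and 1.01 at 2 or more UMIs. In respiratory-gene-high cells it was 0.612 and 0.615 when scaled to all UMIs, and 0.737 and 0.726 with the median gene set to 1. At limits of 1.5% and 3%, chosen after seeing the data, it was 0.691 in the knockout at the lower limit, and 0.608 and 0.517 in control and knockout at the higher. Among values of named genes that were past 1.5-fold in their library, 3 reversed, all in the knockout: *Cacna1e* by *Cck* (1.60 with 1 marker only), and *Trpv6* by *Chst8* or *Alkal2* (1.82 after thinning and 2.09 with positivity from thinned cells). The causes were not tested. No paired analysis was possible because each genotype has 1 library. The knockout library, with 390 cells, limits all ratios of genes under about 50 UMIs.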
